A study of Mus musculus with 6 samples.

Results

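The genes described here encode the enzymes of the tricarboxylic acid (TCA) cycle and the enzymes and carriers that feed it with pyruvate and glutamine carbon. They were taken as the rows of the deposited count table whose symbol was on a list of 32 genes, and all 32 were found, each once, among 52249 genes. The table holds 6 libraries made from cultured mouse intestinal epithelium (organoids, which grow from crypt stem cells) and sequenced near the 3′ end of messenger RNA. All 6 are labelled as Apc knockout, a change that releases WNT signalling, so no library labelled as having intact Apc was analysed here. Of these, 3 are Apc-knockout libraries, called control here, and 3 are Apc-knockout libraries labelled as overexpressing the RNA-binding protein IGF2BP3, called OE-labelled here. The labels do not give the promoter of the overexpression, the number of clones or animals, or their age, and nothing says that the libraries of a group came from separate cultures. The p-values therefore measure the spread between these libraries, which may be technical.

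The TCA cycle runs in the mitochondrial matrix, where acetyl-CoA is joined to oxaloacetate and oxidised stepwise, with electrons passed to NADH and FADH2. Pyruvate enters through the mitochondrial pyruvate carrier and is converted to acetyl-CoA by the pyruvate dehydrogenase complex or to oxaloacetate by pyruvate carboxylase. Glutamine carbon enters as 2-oxoglutarate after conversion to glutamate. In proliferating intestinal epithelium the cycle supplies both energy and precursors for lipids, aspartate and nucleotides.

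Several facts of the whole series bear on every value. The label of overexpression could not be checked, since Igf2bp3 had 1, 0 and 0 counts in the control group and the same numbers in the OE-labelled group, all under a floor of 3 counts. Nor could the knockout label, since Apc had 148 to 182 counts per library and counts near the 3′ end do not show a disrupted gene. Total counts ran from 2180087 to 2519886 per library, and the library names place each group in a series of its own, so library series and group cannot be told apart. The OE-labelled libraries varied more, with a biological coefficient of variation of 17.2% against 3.14% for the control libraries. Of the 11 epithelial markers, 9 were counted, with a summed level from 4275 to 4503 CPM in control and from 5597 to 6330 CPM in OE-labelled libraries, while Cdx1 and Krt20 had 0 counts in every library. The list was mixed, with 5 of 9 tested higher and 1 lower. Cldn7 ran from 189 to 217 CPM in control and from 77.8 to 106 CPM in OE-labelled libraries, and Cdh1 overlapped between groups. Of the 10 enterocyte markers, 6 had 0 counts throughout and the list summed to at most 2.11 CPM. The 11 secretory markers summed to between 719 and 758 CPM in control and between 1474 and 1681 CPM in OE-labelled libraries, with Chga, Chgb, Lyz1 and Neurod1 at 6 or fewer counts in all libraries together. Most of this sum was Spink4, at 469 to 494 CPM in control and 1011 to 1246 CPM in OE-labelled libraries. Of the 6 tested, 4 were higher and 0 lower, and Muc2 and Dclk1 overlapped between groups. Of the 6 stem and WNT markers, 5 were tested and 2 were higher, and the list summed to between 372 and 388 CPM in control and between 504 and 622 CPM in OE-labelled libraries. Most of this sum was Sox9, at 333 to 351 CPM in control and 439 to 581 CPM in OE-labelled libraries. Ascl2 also lay higher without overlap, while Lgr5, Olfm4 and Axin2 overlapped between groups. The fibroblast and muscle list summed to at most 3.28 CPM and the endothelial list to at most 0.461 CPM. The immune list summed to between 41.3 and 50.7 CPM in control and between 58.8 and 75.8 CPM in OE-labelled libraries, from Csf1r and Cd68, with Cd3e, Lyz2 and Adgre1 among the genes at 0. The mitochondrial ribosomal RNAs took from 8.93% to 9.41% of control counts and from 3.89% to 4.36% of OE-labelled counts. The part of the epithelial, secretory and stem and WNT markers, Csf1r and Cd68, and the mitochondrial ribosomal RNAs in the results below was not tested.

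As a whole, the group was more abundant in OE-labelled libraries, and every member that passed the test was higher there. The levels given are CPM, the count relative to the library size after scaling by TMM factors, which correct for differences in library composition. The 32 genes summed to 2425, 2436 and 2343 CPM in control libraries and to 3197, 3250 and 3218 CPM in OE-labelled libraries, in replicate order. The OE-labelled sums lay close together and above all control sums. Of the 32 members, 30 passed the count filter, and 11 of the 30 (36.7%) were higher at an edgeR adjusted p below 0.05, against 16.5% of all 10687 genes tested. None was lower, against 12.7% of all genes, and 29.2% of all genes differed in either direction. DESeq2 called 5 members higher and 0 lower, against 9.91% of all genes called higher and 1037 of 10687 called lower by DESeq2. The unadjusted edgeR p was below 0.05 and the direction lower for 1 member, Idh3a. The members were proposed with earlier results of these data known, so these shares are a description. The members tested were also more abundant than most genes, with a median level of 67.5 CPM over all libraries against 30.3 CPM for all genes tested.

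The median log2 fold change (OE-labelled minus control) of the 30 members was 0.36, against 0.041 for all genes tested, and 24 of the 30 were above 0. Control and OE-labelled CPM did not overlap for 17 members with the OE-labelled libraries higher (56.7%, against 25.3% of all genes) and for 1 member with them lower (3.33%, against 20.5%). The scaling of the libraries moved the counts. With DESeq2 size factors in edgeR 7 members were higher, against 14.4% of all genes under that scaling, and 1, Idh3a, was lower, against 14.4%. With library totals 14 were higher, against 19.0% of all genes, and 0 lower, against 10.8%. Leaving out control replicate 1 left 4 of 30 members higher, against 1097 of all 10945 genes tested in that fit. Without control replicate 2 it was 5 of 30, against 1079 of 10965, and without replicate 3 it was 6 of 30, against 1033 of 10966. The excess of members over all genes was thus smaller in these fits, which also called fewer genes in all. Because bulk RNA was measured, more cells of a type and more RNA per cell cannot be told apart.

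**Figure D1:**
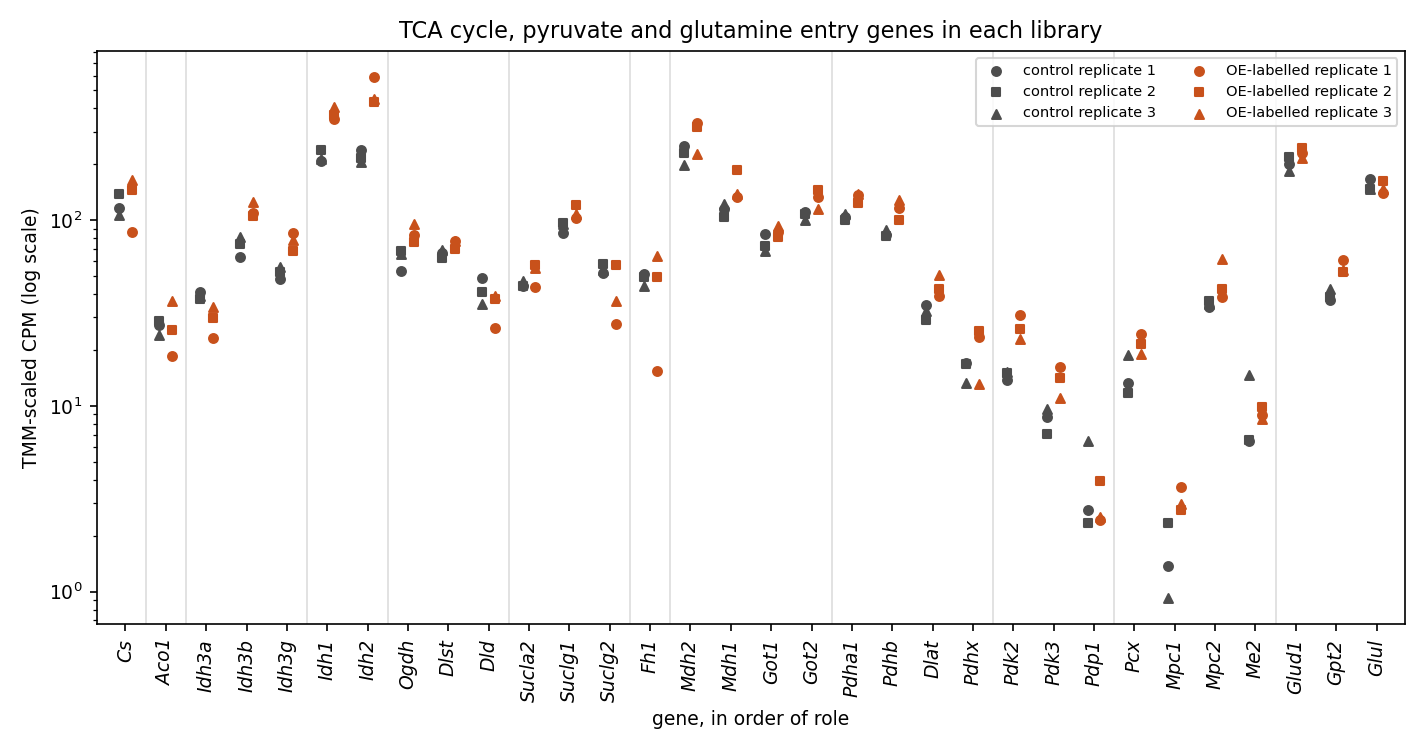
Level of each of the 32 genes in each library, in TMM-scaled CPM on a log scale, with genes ordered by role and separated by thin lines. Control libraries are grey and OE-labelled libraries orange, and Idh1 and Idh2 show the widest gap between groups among the abundant genes, while Fh1 in OE-labelled replicate 1 (15.4 CPM) lies well below every other library.

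Idh2 had the largest fold change of all members tested, and Idh1 the largest after it and Pdk2. The NADP-dependent enzymes, which convert isocitrate to 2-oxoglutarate with release of NADPH, are encoded by Idh1 for the cytosol and peroxisome and by Idh2 for the mitochondrion. Idh2 (ENSMUSG00000030541, minus strand of chromosome 7, 80094846 to 80115392; all positions are GRCm38) had 238, 216 and 206 CPM in the control libraries and 591, 435 and 446 CPM in the OE-labelled libraries. Every OE-labelled library lay well above every control library, with replicate 1 the highest. Idh2 rose 2.23-fold, from 220.0 ± 16.3 CPM to 491 ± 87.2 CPM (SD, n = 3; log2 fold change 1.16, SE 0.13, edgeR adjusted p = 0.000124). Idh1 (ENSMUSG00000025950, minus strand of chromosome 1, 65158616 to 65186500) was counted at 207, 239.7 and 214 CPM in the control libraries and 351, 370.0 and 406 CPM in the OE-labelled libraries, again without overlap. It rose 1.71-fold (log2 fold change 0.77, SE 0.11, edgeR adjusted p = 0.000404). Both passed in all 20 alternative settings. Together the transcripts of these genes made up 18.3%, 18.7% and 17.9% of all member counts in control libraries and 29.5%, 24.8% and 26.5% in OE-labelled libraries. Without them the other 30 members summed to between 1924 and 1980 CPM in control and between 2255 and 2445 CPM in OE-labelled libraries, so the higher sum did not rest on these genes alone.

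The NAD-dependent mitochondrial enzyme, which drives the cycle itself, is built from a catalytic alpha subunit (Idh3a) and from beta (Idh3b) and gamma (Idh3g) subunits. The beta and gamma transcripts rose, whereas the alpha transcript did not pass the test and had lower values. Idh3b (ENSMUSG00000027406, minus strand of chromosome 2, 130279309 to 130284547) was counted at 63.1, 74.6 and 81.1 CPM in the control libraries and 109, 106 and 126 CPM in the OE-labelled libraries. Idh3g (ENSMUSG00000002010, minus strand of chromosome X, 73778963 to 73786897) was counted at 47.9, 52.5 and 55.7 CPM in the control libraries and 85.1, 68.4 and 77.8 CPM in the OE-labelled libraries. For neither gene did the groups overlap. Idh3b rose 1.56-fold (log2 fold change 0.64, SE 0.13, edgeR adjusted p = 0.00364) and passed in all 20 alternative settings. Idh3g rose 1.48-fold (log2 fold change 0.57, SE 0.13, edgeR adjusted p = 0.00786), a call lost in 2 of 20. Idh3b overlaps Nop56 on the opposite strand, a gene with 130 to 213 counts per library, and the use of strand in counting is not given in the sources used here. In all, 13 members overlap at least 1 annotated gene. Idh2 overlaps Gm45203 on its own strand. On the opposite strand Mdh1 overlaps Wdpcp (5 to 12 counts per library) and Pdha1 overlaps Map3k15 (1 to 10 counts). Idh3a was counted at 41, 37.5 and 39.2 CPM in the control libraries and 23.1, 29.9 and 34.2 CPM in the OE-labelled libraries, so that all OE-labelled values lay below all control values, the opposite order to its partners. Its log2 fold change of -0.43 (SE 0.17) did not pass the test (edgeR adjusted p = 0.0747). It passed with DESeq2 size factors in edgeR (-0.48, adjusted p = 0.0485), within a range of adjusted p from 0.0277 to 0.299 over the alternatives.

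**Figure D2:**
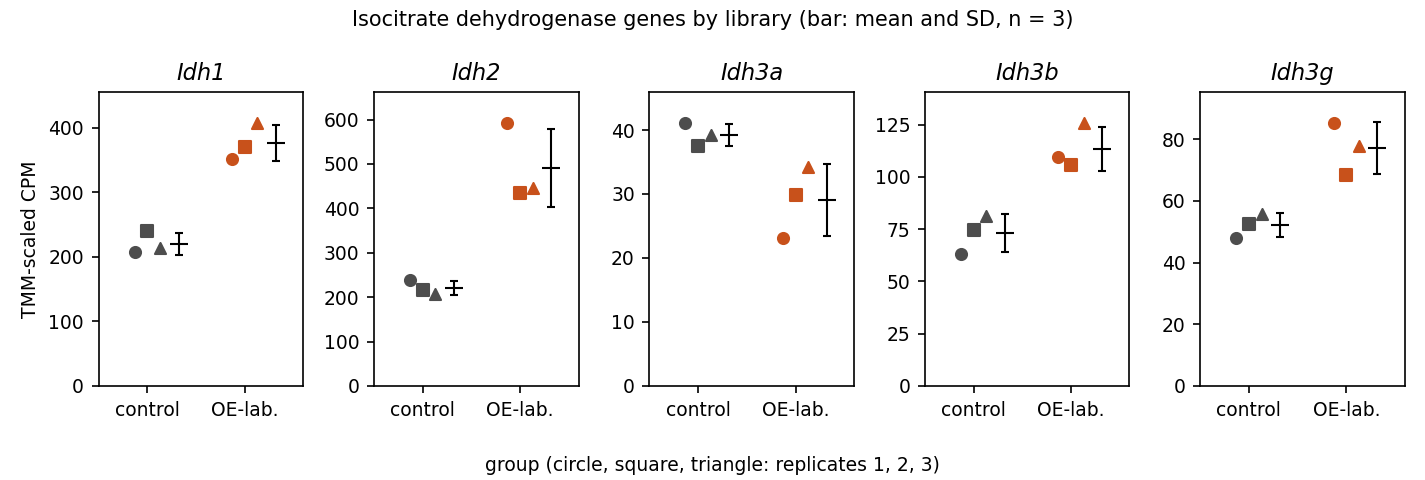
Levels of the isocitrate dehydrogenase genes in TMM-scaled CPM on linear axes from 0, by group, with each replicate as a point and the mean and SD (n = 3) beside it. Idh1, Idh2, Idh3b and Idh3g lie higher in every OE-labelled library, and Idh3a lies lower in every OE-labelled library without passing the test.

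The promoters of these genes are shown because the members that rose included both NADP-dependent genes and the beta and gamma genes of the NAD-dependent enzyme. RefSeq windows on GRCm38.p6, from 250 bases before to 50 bases after an annotated start, were matched by symbol for 29 of the 32 members, Idh3a not among them. They are written 5′ to 3′ on the strand of the gene. Capitals mark CCGGAAG on either strand, the core bound by ETS factors. Idh1 has a second annotated window, which is not printed.
Idh2, chr7:80115301-80115600, minus strand: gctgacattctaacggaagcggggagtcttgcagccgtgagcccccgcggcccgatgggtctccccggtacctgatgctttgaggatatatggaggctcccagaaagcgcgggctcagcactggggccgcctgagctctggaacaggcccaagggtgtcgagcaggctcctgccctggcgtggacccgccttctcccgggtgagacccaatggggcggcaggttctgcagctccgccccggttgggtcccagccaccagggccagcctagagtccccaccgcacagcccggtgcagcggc
Idh1, chr1:65186430-65186729, minus strand: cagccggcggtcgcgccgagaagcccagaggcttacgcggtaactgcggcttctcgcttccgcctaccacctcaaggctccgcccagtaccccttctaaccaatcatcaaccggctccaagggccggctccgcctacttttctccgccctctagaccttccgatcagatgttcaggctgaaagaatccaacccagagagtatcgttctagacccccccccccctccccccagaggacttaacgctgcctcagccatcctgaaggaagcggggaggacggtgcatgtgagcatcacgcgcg
Idh3b, chr2:130284402-130284701, minus strand: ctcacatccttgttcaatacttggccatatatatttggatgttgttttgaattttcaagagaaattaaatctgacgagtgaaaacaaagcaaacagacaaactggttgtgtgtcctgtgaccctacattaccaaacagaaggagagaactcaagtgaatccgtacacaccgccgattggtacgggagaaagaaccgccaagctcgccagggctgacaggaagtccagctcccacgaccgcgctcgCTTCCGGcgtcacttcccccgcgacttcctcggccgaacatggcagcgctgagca
Idh3g, chrX:73786848-73787147, minus strand: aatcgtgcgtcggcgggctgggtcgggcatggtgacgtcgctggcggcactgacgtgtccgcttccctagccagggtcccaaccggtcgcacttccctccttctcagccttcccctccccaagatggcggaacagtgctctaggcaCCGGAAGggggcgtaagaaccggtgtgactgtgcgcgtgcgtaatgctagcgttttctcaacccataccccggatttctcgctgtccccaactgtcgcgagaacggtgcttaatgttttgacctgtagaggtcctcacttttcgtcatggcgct
The letters CCGGAAG began 5 bases before the start in Idh3b, on the opposite strand, and 104 bases before it in Idh3g, and were not in the windows of Idh1 and Idh2. In any of their windows they were present in 4 of 28 members tested that have one (14.3%) and in 22.2% of the 8388 tested genes with a window. The E-box CACGTG, the core bound by MYC with MAX, was present in Ogdh, Pcx and Pdk2, 3 of 28 members (10.7%), against 12.5% of tested genes. The motifs do not contain each other, both strands were searched, and a match of letters is a description and not a binding site.

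Of the members for the other steps of the cycle, Ogdh alone passed the test. The malate dehydrogenase gene Mdh1 also passed, but its enzyme is cytosolic and not part of the mitochondrial cycle. Cs encodes citrate synthase, which joins acetyl-CoA to oxaloacetate. It was counted at 116, 137 and 106 CPM in the control libraries and 86.7, 145 and 164 CPM in the OE-labelled libraries, so the OE-labelled libraries lay on both sides of the control range, with replicate 1 below it and replicates 2 and 3 above it (log2 fold change 0.14, edgeR adjusted p = 0.627). Aco1, the cytosolic aconitase that also acts as an iron-regulatory protein, ran from 18.6 to 36.8 CPM over the libraries with overlapping groups (0.018, edgeR adjusted p = 0.961). Ogdh, the decarboxylating subunit of the 2-oxoglutarate dehydrogenase complex (ENSMUSG00000020456, plus strand of chromosome 11, 6291633 to 6356642), was counted at 53.5, 68.5 and 65.9 CPM in the control libraries and 83.1, 75.9 and 95.1 CPM in the OE-labelled libraries, with no overlap. It rose 1.35-fold (log2 fold change 0.43, SE 0.14, edgeR adjusted p = 0.034), a call lost in 11 of 20 alternatives. Dlst, its succinyltransferase subunit, had a log2 fold change of 0.18 (edgeR adjusted p = 0.283). Dld, the dehydrogenase subunit shared with the pyruvate dehydrogenase complex, had -0.28 (edgeR adjusted p = 0.274).

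Succinyl-CoA ligase, which makes ATP or GTP at the substrate level, pairs the alpha subunit Suclg1 with either the ADP-specific beta subunit Sucla2 or the GDP-specific beta subunit Suclg2. None of these genes passed the test. Suclg2 was counted at 52.1, 58.2 and 53.9 CPM in the control libraries and 27.5, 57 and 36.8 CPM in the OE-labelled libraries, so replicates 1 and 3 of the OE-labelled group lay below the controls and replicate 2 within their range (log2 fold change -0.43, edgeR adjusted p = 0.147). Suclg1 had a log2 fold change of 0.25 (adjusted p = 0.129) and Sucla2 of 0.20 (adjusted p = 0.314, both edgeR). Fh1, which hydrates fumarate to malate and acts as a tumour suppressor, was counted at 51.2, 49.3 and 44.2 CPM in the control libraries and 15.4, 49.2 and 64.3 CPM in the OE-labelled libraries. OE-labelled replicate 1 held less than the other libraries, and replicate 3 the most. Its log2 fold change of -0.17 did not pass (SE 0.34, edgeR adjusted p = 0.737), and it was 0.17 without that replicate (adjusted p = 0.4).

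The malate dehydrogenases and aspartate aminotransferases run the malate-aspartate shuttle, which carries reducing equivalents into the mitochondrion. Mdh1, the cytosolic malate dehydrogenase (ENSMUSG00000020321, minus strand of chromosome 11, 21556787 to 21572367), was counted at 115, 104 and 122 CPM in the control libraries and 132, 186 and 138 CPM in the OE-labelled libraries, with no overlap. It rose 1.34-fold (log2 fold change 0.43, SE 0.14, edgeR adjusted p = 0.0387), a call lost in 8 of 20 alternatives. Mdh2, the mitochondrial enzyme of the cycle, was counted at 250.3, 229 and 199 CPM in the control libraries and 333, 317 and 227 CPM in the OE-labelled libraries. OE-labelled replicates 1 and 2 lay above the controls and replicate 3 among them (log2 fold change 0.37, edgeR adjusted p = 0.0734). Got2, the mitochondrial aminotransferase, had a log2 fold change of 0.31 (adjusted p = 0.0745) and cytosolic Got1 of 0.21 (adjusted p = 0.234, both edgeR).

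The pyruvate dehydrogenase complex links glycolysis to the cycle, and 3 of its 4 subunit genes listed besides Dld were higher. Pdha1 and Pdhb encode the decarboxylase (E1), Dlat the acetyltransferase (E2) and Pdhx the protein that anchors the dehydrogenase. Pdhb (ENSMUSG00000021748, minus strand of chromosome 14, 8165996 to 8173025) was counted at 83, 82.6 and 88.5 CPM in the control libraries and 116, 101 and 129 CPM in the OE-labelled libraries, and rose 1.36-fold (log2 fold change 0.44, SE 0.12, edgeR adjusted p = 0.0184). Pdha1 (ENSMUSG00000031299, minus strand of chromosome X, 160122209 to 160138413) was counted at 104, 100.4 and 108 CPM in the control libraries and 137, 123 and 139 CPM in the OE-labelled libraries, and rose 1.28-fold (log2 fold change 0.36, SE 0.11, edgeR adjusted p = 0.0281). Dlat (ENSMUSG00000000168, minus strand of chromosome 9, 50634633 to 50659780) was counted at 35, 29.1 and 32.3 CPM in the control libraries and 39.3, 42.5 and 50.7 CPM in the OE-labelled libraries, and rose 1.37-fold (log2 fold change 0.46, SE 0.16, edgeR adjusted p = 0.0469). The groups did not overlap for any of these genes. These calls were lost in 5, 9 and 12 of 20 alternatives, DESeq2's test among them in each case (adjusted p = 0.0699, 0.134 and 0.193). Pdhx was counted at 17.1, 16.9 and 13.4 CPM in the control libraries and 23.5, 25.2 and 13.1 CPM in the OE-labelled libraries, with OE-labelled replicate 3 below the controls and the other replicates above them (log2 fold change 0.39, edgeR adjusted p = 0.272).

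The complex is phosphorylated and inactivated by kinases, of which Pdk2 rose. Pdk2 (ENSMUSG00000038967, minus strand of chromosome 11, 95026258 to 95041354) was counted at 13.8, 15 and 15.2 CPM in the control libraries and 30.8, 26 and 22.8 CPM in the OE-labelled libraries, with every OE-labelled library above every control library. It rose 1.81-fold (log2 fold change 0.85, SE 0.20, edgeR adjusted p = 0.00699), from 30 to 33 counts per control library to 54 to 76 counts per OE-labelled library. The call was lost in 1 of 20 alternatives, the fit with the GC offset and without OE-labelled replicate 1 (adjusted p = 0.0764). Pdk3 was counted at 8.76, 7.04 and 9.68 CPM in the control libraries and 16.2, 14.2 and 11 CPM in the OE-labelled libraries, also with no overlap (log2 fold change 0.70, SE 0.26, edgeR adjusted p = 0.0564), and did not pass. Pdp1, the phosphatase that reactivates the complex, held 5 to 14 counts per library and was below the count filter, as was the pyruvate carrier subunit Mpc1 with 2 to 5 counts per control library and 7 to 9 counts per OE-labelled library. The Pdk2 window that held the E-box is shown with its 6 letters in capitals, 126 bases before the annotated start.
Pdk2, chr11:95041322-95041621, minus strand: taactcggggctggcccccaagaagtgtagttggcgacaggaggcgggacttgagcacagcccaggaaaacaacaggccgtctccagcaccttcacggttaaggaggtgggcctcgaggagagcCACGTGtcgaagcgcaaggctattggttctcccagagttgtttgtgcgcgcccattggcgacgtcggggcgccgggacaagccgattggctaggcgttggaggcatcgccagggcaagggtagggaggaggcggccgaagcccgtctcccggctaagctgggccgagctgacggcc

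Among the other genes of pyruvate entry none passed. Mpc2, the carrier's other subunit, was counted at 34.1, 36.6 and 35.5 CPM in the control libraries and 38.5, 42.9 and 62.1 CPM in the OE-labelled libraries, with no overlap and OE-labelled replicate 3 the highest (log2 fold change 0.43, SE 0.18, edgeR adjusted p = 0.0959). Pcx, pyruvate carboxylase, was counted at 13.4, 11.7 and 18.9 CPM in the control libraries and 24.3, 21.6 and 19 CPM in the OE-labelled libraries (log2 fold change 0.56, SE 0.23, edgeR adjusted p = 0.0786). The lowest OE-labelled value of Pcx lay just above the highest control value. Me2, the mitochondrial malic enzyme that makes pyruvate from malate, held 14 to 32 counts per library, and its groups overlapped (-0.029, edgeR adjusted p = 0.956).

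Of the members of glutamine and glutamate use, Gpt2 alone passed. Gpt2, the mitochondrial alanine aminotransferase that makes 2-oxoglutarate from glutamate while turning pyruvate into alanine (ENSMUSG00000031700, plus strand of chromosome 8, 85492576 to 85527560), was counted at 37.3, 38.5 and 42.4 CPM in the control libraries and 60.8, 52.7 and 53.7 CPM in the OE-labelled libraries. It rose 1.41-fold with no overlap (log2 fold change 0.50, SE 0.14, edgeR adjusted p = 0.0171), a call lost in 7 of 20 alternatives. Glud1, glutamate dehydrogenase, was among the most abundant members at 184 to 245 CPM, with overlapping groups (log2 fold change 0.20, edgeR adjusted p = 0.195). Glul, glutamine synthetase, which runs in the opposite direction, ran from 141 to 167 CPM (log2 fold change -0.033, SE 0.11, edgeR adjusted p = 0.849).

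**Figure D3:**
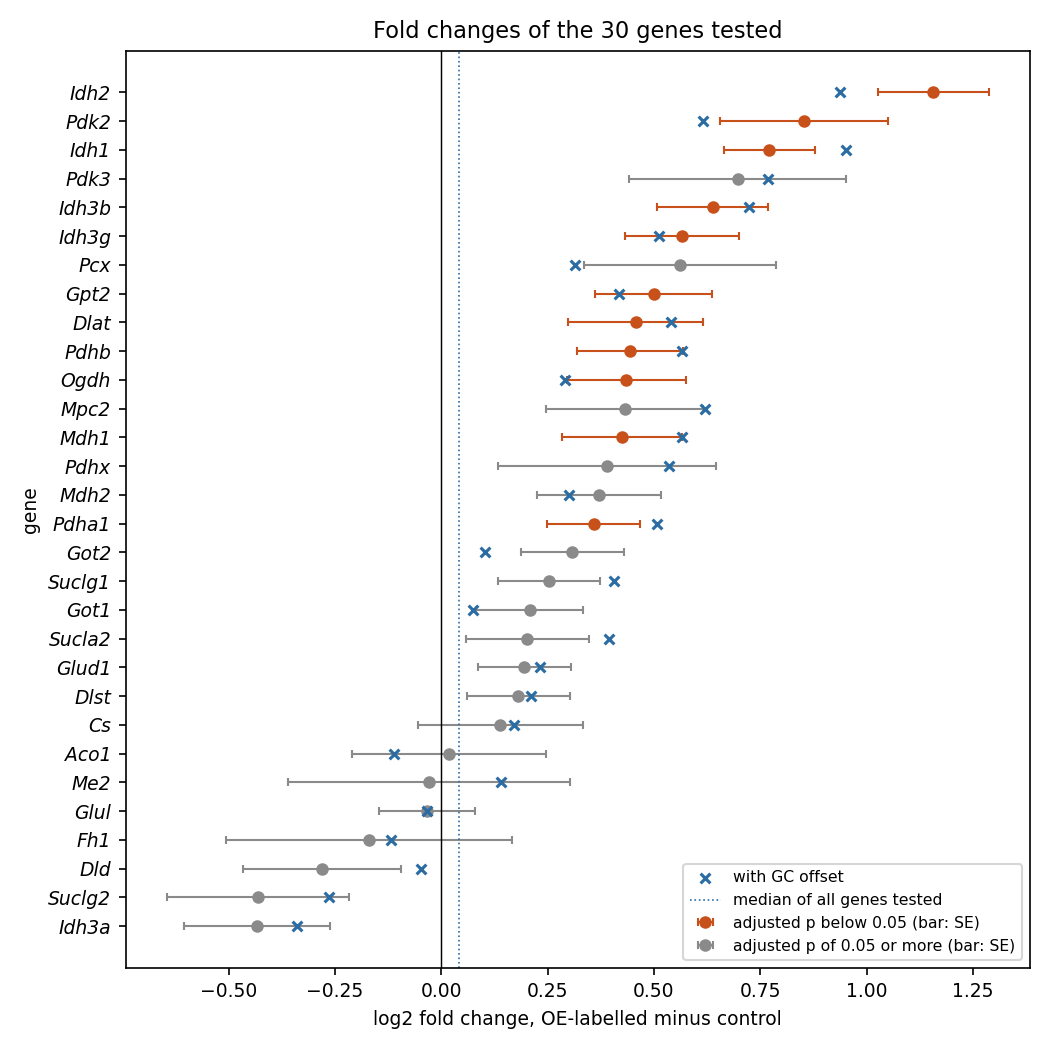
Log2 fold change (OE-labelled minus control) of the 30 genes tested, with bars for the SE, orange where the edgeR adjusted p was below 0.05, and blue crosses for the fit with an offset for GC content. The 11 orange genes all lie right of 0, from 0.36 (Pdha1) to 1.16 (Idh2), and 6 genes lie left of 0, none past the threshold.

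The fold changes were also compared with base composition, because across all genes tested the log2 fold change followed the GC content of the longest transcript (Spearman rho 0.37 across genes, which are not independent replicates). Over the 30 members rho was 0.31, and their median GC content was 47.7%, below the 49.7% of all genes tested. With a per-library GC offset 12 members were higher and 0 lower, against 12.9% and 10.3% of all genes, and the median of the members was 0.35. Of the 11 members called without the offset 9 remained, Ogdh (adjusted p = 0.16) and Gpt2 (adjusted p = 0.0521) no longer passed, and Mpc2, Pdk3 and Suclg1 were added. Idh1, with a GC content of 43.8%, moved from 0.77 to 0.95 and Idh2, with 55.6%, from 1.16 to 0.94. With the offset, the fold changes of Idh1 and Idh2 were nearly equal. Across all genes tested the log2 fold change also followed exonic length, with a Spearman rho of -0.30. With a per-library offset for exonic length 7 members were higher and 0 lower, against 13.3% and 10.6% of all genes, and the median of the members was 0.29. Of the 11 members called without it 6 remained (Idh1, Idh2, Idh3b, Ogdh, Pdk2 and Gpt2) and Mpc2 was added. Idh3g, Pdha1, Pdhb, Dlat and Mdh1 no longer passed, with edgeR adjusted p from 0.0526 (Dlat) to 0.198 (Mdh1).

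The balance between partner genes was read as the log2 ratio of their counts within a library, which library scaling does not move. Because libraries were made near the 3′ end, long transcripts do not gather more counts, although capture can still differ between genes. The fold change still followed exonic length across all genes, as given above. Idh3a has 5072 exonic bases, against 3422 for Idh3b and 2701 for Idh3g. Suclg2 has 4623, against 4617 for Suclg1 and 3988 for Sucla2. The part of length in the ratios was not tested. Of 15 pairs of members, 4 had no overlap between groups, and each of these had Idh3a or Suclg2 as denominator, so they are not separate results. Of all single genes tested, 25.3% did not overlap with OE-labelled libraries higher and 20.5% with them lower. The share over all gene pairs was not computed, so the count of pairs is a description. The ratio of Idh3b to Idh3a was 0.62, 0.99 and 1.05 in the control libraries and 2.23, 1.82 and 1.87 in the OE-labelled libraries, a difference of 1.09. The ratio of Idh3g to Idh3a was 0.22, 0.48 and 0.51 in the control libraries and 1.87, 1.19 and 1.18 in the OE-labelled libraries, a difference of 1.01. In every OE-labelled library the transcripts of the beta and gamma subunits exceeded that of the catalytic subunit by more than in any control library. This order follows from the levels given above, where Idh3b and Idh3g lay higher and Idh3a lower without overlap, so it is not a separate result. Both partners of Suclg2 were higher relative to it in every OE-labelled library than in any control library. The ratio of Sucla2 to Suclg2 was -0.23, -0.40 and -0.20 in the control libraries and 0.66, 0 and 0.58 in the OE-labelled libraries (difference 0.69), and the difference was 0.75 for Suclg1 to Suclg2. Each of these 4 pairs had an exact two-sided permutation p of 0.1, the smallest that 3 against 3 libraries allow, and 0.375 after Benjamini-Hochberg adjustment over 15 pairs, so none could pass 0.05. The other 11 pairs overlapped. Pdha1 to Pdhb differed by -0.081, Dlat to Pdhb by 0.014, Mdh1 to Mdh2 by 0.054, Got1 to Got2 by -0.090 and Pdk2 to Pdk3 by 0.16.

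**Figure D4:**
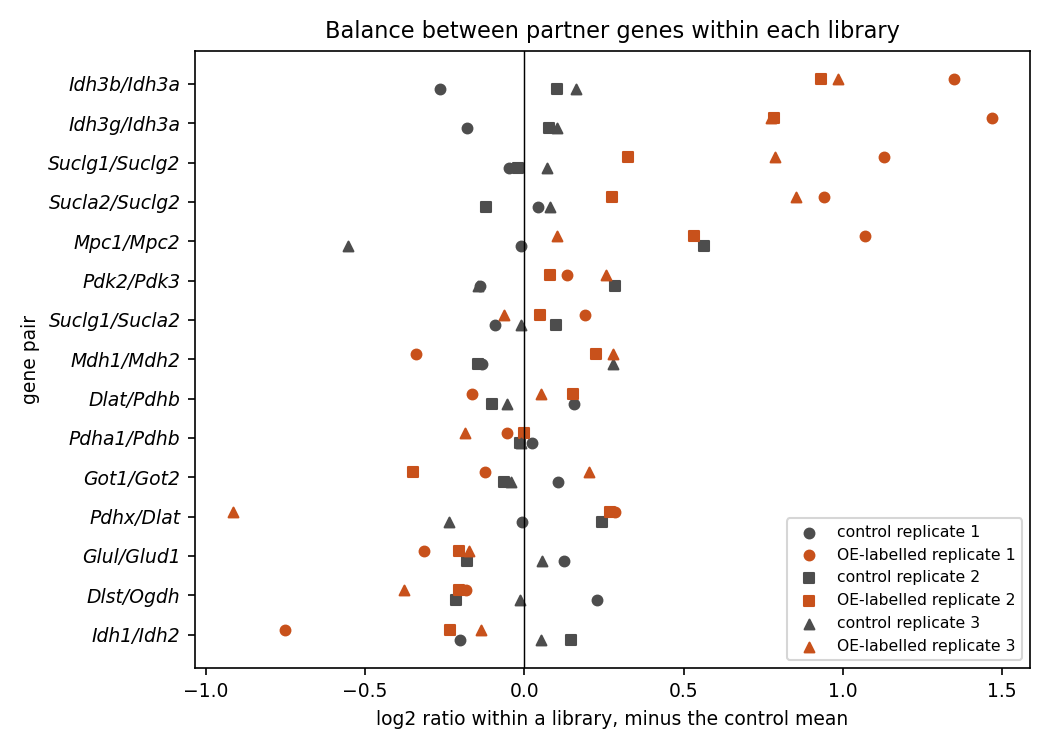
Log2 ratio of the counts of partner genes within each library, drawn relative to the mean of the control libraries, for the 15 pairs on the vertical axis. The pairs with Idh3a or Suclg2 as denominator lie right of all controls, while the pairs within the pyruvate dehydrogenase complex overlap.

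A list of 40 further genes of the pathway was read in the same way. Of these, 32 were tested, 11 rose and 2 fell past the threshold of edgeR adjusted p below 0.05, against 16.5% and 12.7% of all genes, and their median log2 fold change was 0.26. Sdhaf1, an assembly factor of succinate dehydrogenase, rose by 1.03 on the log2 scale (adjusted p = 0.00275), and the dicarboxylate carrier Slc25a10 by 0.94 (adjusted p = 0.00206, both edgeR). Asns, asparagine synthetase, rose by 0.68 (adjusted p = 0.000927), the citrate carrier Slc25a1 by 0.63 (adjusted p = 0.00388) and the glutamine transporter Slc1a5 by 0.57 (adjusted p = 0.00221, all edgeR). The increases of Sdhaf1, Slc25a10 and Asns passed in each alternative that tested them.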

How the data were processed

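Counts per gene were analysed for 6 mouse intestinal organoid libraries, 3 control and 3 OE-labelled, matched to table columns by library name. Per the labels' protocols, libraries were made from total RNA with a QuantSeq 3′ forward kit. The submitters' processing notes name STAR and HTSeq and the builds mm10 and GRCm38, while annotation, strand and multi-mapping settings are not given in the sources used here. The authors deposited unnormalized counts, treated here as estimated counts because 2843 values (3.1% of those above 0) were fractional, where whole counts had been planned for. None of these belonged to a member, and values were rounded. Positions, GC content and exonic length came from GENCODE M21 (GRCm38) by gene identifier.

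The groups were compared with edgeR 4.0.16 in R 4.3.3 (filterByExpr, TMM, quasi-likelihood test, no covariates), with Benjamini-Hochberg adjustment over 10687 genes. SEs are the log2 fold change over the square root of F. Total counts of 2180087 to 2519886 put the floor of 3 counts at 1.18 to 1.41 CPM, for counting error only. Pair ratios were log2 of counts plus 0.5, tested by exact permutation in scipy 1.17.1. On simulated counts for this comparison (10687 genes, 200 changed by 1 log2 unit) 86.5% of changed genes were recovered with equal spread and 80% with a spread per group. Of the genes called there, 4.4% and 1.2% were false calls. Among the called members only Idh2 changed by more than 1 log2 unit, and recovery of smaller changes was not simulated. Alternatives were DESeq2 size factors, library totals, DESeq2 1.42.0, limma-voom (limma 3.58.1), other filters (none, or at least 10 counts in all libraries), equal depth (random thinning), removal of mitochondrial and ribosomal RNA genes, GC and length offsets (loess, span 0.5), a replicate block and each library left out. The GC offset without OE-labelled replicate 1, limma-voom with group-wise variances and 4 further draws of the thinning were added after seeing the data. All 32 members are named, those past the threshold with every library's value, and up to 6 further pathway genes per direction; some of the latter, and 1 planned pair ratio with a gene outside the members, are not reported here. The members and lists were chosen with earlier results of these data known.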

Additional observations from a re-analysis of the deposited data

How the results depend on the processing

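Idh1, Idh2 and Idh3b were higher with an adjusted p below 0.05 in all 20 alternatives and in the further draws of the thinning. Over all members tested, 488 of 600 alternative values kept direction and call, 55 no longer passed, 28 passed where the reported fit did not, and 29, none of them a called member, changed sign. Leaving out single libraries gave from 1748 to 3532 genes called in all, with 1033 to 1959 genes higher and 715 to 1731 lower. The members higher ranged from 4 to 13, the members lower from 0 to 1 and the member medians from 0.23 to 0.35. Leaving out control replicate 1, 2 or 3 gave 1893, 1837 and 1748 genes. The number of members higher was 7 with DESeq2 size factors, with mitochondrial and ribosomal RNA genes removed and with the length offset, and 5 with DESeq2. The number lower was 1 with DESeq2 size factors, at equal depth and with mitochondrial and ribosomal RNA genes removed (Idh3a in each), and without a count filter (Suclg2). In all, 1541 of 10687, 1326 of 10615, 1623 of 10649 and 1657 of 18991 genes were lower in these fits, in that order. With mitochondrial and ribosomal RNA genes removed, 1491 of 10649 genes were higher. The member median was 0.41 with library totals, 0.305 without mitochondrial and ribosomal RNA genes and 0.29 with the length offset. Thinning to equal depth is a random draw, and 4 of the 5 draws were added after seeing the data. Over the 5 draws 9 to 12 members were higher, and 3027 to 3067 genes were called in either direction. Draw 1 had 12 members higher, against 1741 of all 10615 genes. Idh3a was lower past the threshold in 1 draw (edgeR adjusted p from 0.0364 to 0.0928 over the draws). The cause was not tested, other than that fewer libraries entered the fits that left one out.

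The replicate block gave 3112 genes in all, and 1732 of 10687 genes were higher. With it 11 members were higher and the member median was 0.36. Dlat no longer passed (edgeR adjusted p = 0.0565) and Mdh2 did (edgeR adjusted p = 0.0302). With the block and the GC offset 12 members were higher, against 1479 of all 10679 genes. Across genes, libraries of equal number deviated from their group means with correlations of 0.097, 0.018 and 0.069, against a mean of -0.031 for unequal numbers. Control replicate 2 correlated better with OE-labelled replicate 3 (0.042) than with its own number. The labels do not say whether libraries of equal number share a culture or batch, and these small correlations cannot settle it.

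Members near 0 changed sign without passing. The log2 fold change of Aco1 became -0.027 with DESeq2 size factors and with DESeq2 (-0.027), -0.036 with limma-voom, with or without a variance per group (-0.036), -0.020 without a filter, -0.041 without mitochondrial and ribosomal RNA genes, -0.0070 with the block, -0.11 with the GC offset, -0.14 with both and -0.021 with the length offset, and the fits with 1 library less gave -0.26 to 0.17. Me2 became 0.018 with library totals, 0.021 at equal depth, 0.073 with limma-voom, with or without a variance per group (0.073), 0.012 with the block, 0.14 with the GC offset, 0.17 with both and 0.078 with the length offset, and the fits with 1 library less gave -0.24 to 0.48. Glul became 0.015 with library totals. The fits with 1 library less (leave-one-out) gave -0.12 to 0.028 for Glul, -0.045 to 0.31 for Cs and -0.57 to 0.17 for Fh1. With the GC offset and without OE-labelled replicate 1, Dld was 0.060, Fh1 0.26 and Me2 0.11. The pair ratio differences kept their direction in all 15 pairs with 2 counts added and at equal depth. With 1 library left out 5 pairs changed sign at least once: Mdh1 to Mdh2 (-0.057 to 0.25), Got1 to Got2 (-0.24 to 0.040), Suclg1 to Sucla2 (-0.0072 to 0.12), Dlat to Pdhb (-0.056 to 0.10) and Pdhx to Dlat (-0.32 to 0.28). Depth limits Mpc1, Pdp1, Me2 and Pdk3, which held at most 40 counts per library.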
